A study of Mus musculus with 10 samples.

Results

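The 6 genes described here encode inhibitors of cyclin dependent kinases (CDKs): Cdkn1a (p21) and Cdkn1b (p27) of the Cip/Kip family, and Cdkn2a (p16 and Arf), Cdkn2b (p15), Cdkn2c (p18) and Cdkn2d (p19) of the Ink4 family. They were chosen by name, as all Ink4 genes and the Cip/Kip genes other than the imprinted Cdkn1c, and are 6 of the 16440 genes present in every deposited table. RNA was sequenced from the heart of 3 animals labelled WT, 3 labelled Ft1ko and 4 labelled Ft1sm22ko, aged 1 week. Ft1 is the protein encoded by Aktip, a factor of telomere replication. Ft1ko mice came from a floxed Ft1 allele crossed with CMV-cre, which deletes it in the whole body. Ft1sm22ko mice came from the same floxed allele crossed with a cre driven by sm22 (Tagln), a gene of smooth muscle. These crosses are known from the study's methods, which also state that the hearts were from males. Whether WT animals carried the floxed allele or a cre is not given in the sources used here.

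Ink4 proteins bind CDK4 and CDK6 and keep them from cyclin D. Cip/Kip proteins bind the cyclin and the CDK together and mostly inhibit CDK2 complexes. Both keep the retinoblastoma family able to hold E2F factors, so that the cell does not enter S phase. p21 is a classical target of p53 after DNA damage, and p16 and p21 are the usual RNA markers of senescent cells. Cardiomyocytes of the mouse leave the cell cycle within the first days after birth, a period in which CDK inhibitors accumulate.

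The deposited tables hold, for each pair of groups, 1 mean per gene over the hearts of both groups, in counts divided by the size factor of each library. Each group's level was solved here from the 3 pair means and is called a normalised count. The levels have no error between hearts, no value per heart was used, and no test could be made. The range in brackets after a level is its lowest and highest value over the 265 ways of aligning the tables that leave no gene with a pair mean of at least 100 with a level below 0 by more than 1% of its summed levels. It covers the alignment only and not the spread between animals. It is therefore not shown that any difference below exceeds the spread between hearts. Depth per library is not given in the sources used here.

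Some RNAs stood apart by group before any CDK inhibitor was considered. Xist, the RNA of the inactive X chromosome of females, was at 4288 normalised counts in WT and 4335 in Ft1sm22ko, and at -40.4 (-84.5 to 195) in Ft1ko, which cannot be told from 0. The Y-linked Ddx3y was at 494 in WT, 719 in Ft1ko and 156 in Ft1sm22ko. The stated male sex does not match these levels in WT and Ft1sm22ko, and sex and genotype cannot be told apart in these group levels. The 6 cardiomyocyte markers summed to 1154900 normalised counts in WT, 225490 in Ft1ko and 483330 in Ft1sm22ko. The 5 atrial muscle markers summed to 698 in WT, 52857 in Ft1ko and 53180 in Ft1sm22ko. The 6 lung epithelium markers summed to 258, 45931 and 2975, with Sftpc at -23.5 in WT, and 7 thymocyte markers to 61.6, 4946 and 114. The 5 fibroblast markers summed to 24441, 73780 and 83758. Smooth muscle markers summed to 15303, 12990 and 11943, and endothelial to 16823, 13446 and 16148. Macrophage markers summed to 1042, 1174 and 1073, skeletal muscle to 30702, 6327 and 17662, and erythroid to 846, 3652 and 4592. Such sums follow the most abundant genes. Of 5 smooth muscle markers, 3 were at least 2-fold higher in Ft1ko than in WT and 1 was at least 2-fold lower. Of 5 endothelial markers none was at least 2-fold higher in either mutant. Among them 1 was at least 2-fold lower in both, Egfl7 (6215, 2326 and 2144). Ckm alone was at 30683, 6288.5 and 17636 in the skeletal muscle sum. For skeletal muscle and erythroid, 3 of 5 listed genes were in every table. In bulk tissue fewer cells of a type and less RNA per cell cannot be told apart. The part of these markers in the levels of the CDK inhibitors and of the listed genes below was not tested. Aktip itself was at 666 normalised counts in WT, 172 in Ft1ko and 291 in Ft1sm22ko, which follows the labels.

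The stretches upstream of the start are shown for the genes on which the description turns: Cdkn1a, for its known tie to p53, Cdkn2b, whose level was highest in Ft1ko, and Cdkn2c, which was higher in both mutants than in WT. They are the 250 bases before a start listed by RefSeq on GRCm38.p6, written 5′ to 3′ on the strand of the gene. RefSeq gave 9 start windows for the 6 genes, each with 250 bases before and 50 after the start. In the first Cdkn1a stretch the capitals mark matches to the p53 half-site, and in the others the GC box GGGCGG, the binding letters of Sp1, read on both strands.
Cdkn1a first start, chr17:29090729-29090978, plus strand: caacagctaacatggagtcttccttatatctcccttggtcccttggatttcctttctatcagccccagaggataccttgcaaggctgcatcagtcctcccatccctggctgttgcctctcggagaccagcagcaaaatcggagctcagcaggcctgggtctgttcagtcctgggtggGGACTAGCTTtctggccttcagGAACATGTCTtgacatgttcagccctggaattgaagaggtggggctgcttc
Cdkn1a second start, chr17:29093519-29093768, plus strand: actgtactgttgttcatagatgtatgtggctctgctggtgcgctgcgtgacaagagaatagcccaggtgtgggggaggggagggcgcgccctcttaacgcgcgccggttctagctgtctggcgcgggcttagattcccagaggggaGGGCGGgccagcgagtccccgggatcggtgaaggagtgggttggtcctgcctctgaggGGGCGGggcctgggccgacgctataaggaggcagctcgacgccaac
Cdkn2b, chr4:89311033-89311282, minus strand: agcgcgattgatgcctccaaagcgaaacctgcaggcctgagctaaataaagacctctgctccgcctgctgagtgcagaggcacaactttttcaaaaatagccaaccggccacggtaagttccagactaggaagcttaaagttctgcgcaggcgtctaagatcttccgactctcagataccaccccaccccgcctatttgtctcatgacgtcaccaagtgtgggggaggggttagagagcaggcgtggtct
Cdkn2c first start, chr4:109666757-109667006, minus strand: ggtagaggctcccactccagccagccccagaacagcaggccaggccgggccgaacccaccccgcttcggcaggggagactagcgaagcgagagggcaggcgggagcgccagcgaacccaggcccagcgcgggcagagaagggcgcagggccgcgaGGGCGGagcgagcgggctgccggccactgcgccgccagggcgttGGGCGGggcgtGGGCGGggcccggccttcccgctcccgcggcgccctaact
An exact pair of p53 half-sites with no gap was in 0 of the 9 windows and in 3 of 32851 mouse promoters of the same length (0.00913%). In the first Cdkn1a stretch the second marked half-site is directly followed by letters that depart from the half-site at 1 position. The exact search does not count such a pair, so it cannot show that a pair is absent. A single half-site was searched only after the pair had given no match and after the sequences had been seen. It occurred in 2 of the 9 windows, of Cdkn1a (2 matches) and Cdkn2d (1 match), against 8.36% of all promoters. The GC box occurred in 7 of the 9 windows and in 35.7% of all promoters. The single GC box of the Cdkn2b window lies past the 250 bases shown, and 3 of the 4 of Cdkn2c lie within them. CCAAT, read on both strands, was in 4 of the 9 windows and in 37.4% of all promoters, and TATAAA in 0 of 9 and 13.6%. These matches describe letters only.

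Cdkn1a, the p53 target that halts cells in G1, was the member with the highest level per exon length in WT and was lower in both mutants. Its mean was 666 normalised counts in WT (644 to 681), 512 in Ft1ko (497 to 535) and 430 in Ft1sm22ko (378 to 444). These ranges cover the alignment only and are not read as a separation of the groups. On the log2 scale the difference to WT was -0.38 in Ft1ko (-0.46 to -0.27) and -0.63 in Ft1sm22ko (-0.79 to -0.59). Scaling to the total of the tables turned both, to 0.84 and 0.50, and placed 18.2% of all genes below 0 in at least 1 group. A gene on the opposite strand, AC167363.2, overlaps Cdkn1a and was not in every table.

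Cdkn1b, which holds cells in quiescence and is removed through Skp2 before S phase, was higher in Ft1ko than in the other groups. It was at 517 normalised counts in WT (501 to 542), 730 in Ft1ko (705 to 746) and 512 in Ft1sm22ko (454 to 528). The log2 difference to WT was 0.50 in Ft1ko (0.38 to 0.57) and -0.01 in Ft1sm22ko (-0.20 to 0.04), where the range spans 0. Between the mutants it was lower in Ft1sm22ko by a log2 difference of -0.51 (-0.69 to -0.47).

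Cdkn2c, an Ink4 inhibitor of CDK4 and CDK6 that E2F factors can induce, showed the widest difference to WT among the 4 members with a pair mean of at least 10 in every table. Its mean was 214 normalised counts in WT (205 to 235), 491 in Ft1ko (470 to 500.1) and 470 in Ft1sm22ko (426 to 481). Both mutant levels were above that of WT, and the ranges cover the alignment only. The ratio to WT was 2.29 in Ft1ko and 2.20 in Ft1sm22ko, log2 differences of 1.20 (1.00 to 1.29) and 1.13 (0.90 to 1.21).

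Cdkn2d, the Ink4 member that is known for its periodic expression in S phase, differed little between groups. It was at 207 normalised counts in WT (200 to 217), 256 in Ft1ko (246 to 264) and 256 in Ft1sm22ko (230.2 to 263). The log2 difference to WT was 0.30 in each mutant, with ranges of 0.18 to 0.41 in Ft1ko and 0.13 to 0.35 in Ft1sm22ko.

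Cdkn2b, the Ink4 inhibitor induced by TGF-beta, was the member whose RNA lay almost wholly in 1 group. The pair means were 31.9 for WT with Ft1ko, 6.63 for WT with Ft1sm22ko and 68.5 for Ft1ko with Ft1sm22ko, each on its own table's scale. The solved level was 63.4 normalised counts in Ft1ko (61.4 to 63.9), 8.35 in Ft1sm22ko (6.59 to 8.85) and 0.44 in WT (-0.12 to 2.38), where it cannot be told from 0. Ft1ko made up 87.8% of the sum of the 3 group means. No fold to WT is given, since the WT level cannot be told from 0. The log2 difference of Ft1sm22ko to Ft1ko was -2.92 (-3.23 to -2.85). Whether all 3 Ft1ko hearts or fewer carried this RNA cannot be seen from a group level. Lung epithelium and thymocyte markers were highest in the same group, at the summed levels above, and their part in the Cdkn2b level was not tested.

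Cdkn2a, whose 2 starts give p16 and Arf from different first exons, was barely detected. It was at 0.93 normalised counts in WT, 2.46 in Ft1ko and 3.86 in Ft1sm22ko. Summed over hearts this is 2.80, 7.38 and 15.5 normalised counts, so that no fold is given. A count per gene does not separate p16 from Arf.

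**Figure D1:**
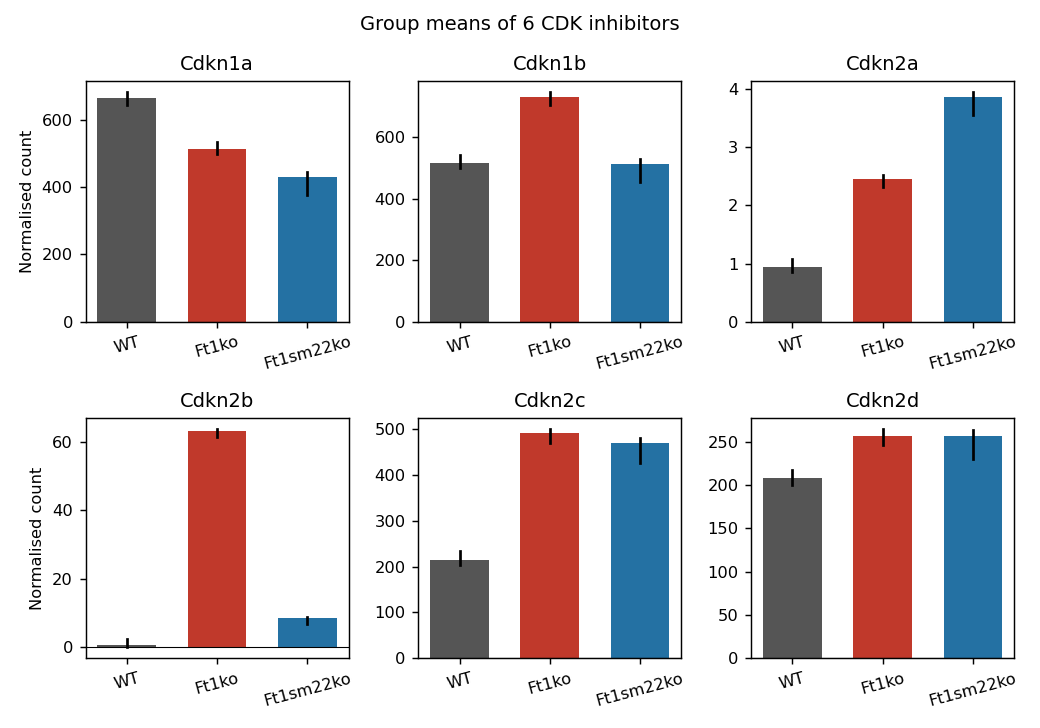
Mean level of each CDK inhibitor in normalised counts (vertical axis, a scale for each gene) in WT, Ft1ko and Ft1sm22ko hearts. Bars are group levels solved from pair means, and black lines are their range over the 265 alignments, not an error between hearts. Cdkn1a is highest in WT, Cdkn2c is higher in both mutants, and Cdkn2b stands at 63.4 in Ft1ko against 0.44 in WT.

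Levels of different genes were compared per kilobase of exon in the GENCODE M21 annotation, in normalised counts per kb. In WT the order was Cdkn1a (188), Cdkn2d (132), Cdkn1b (114), Cdkn2c (79.6), Cdkn2a (0.80) and Cdkn2b (0.32). In Ft1ko it was Cdkn2c (183), Cdkn2d (163), Cdkn1b (160), Cdkn1a (144), Cdkn2b (45.6) and Cdkn2a (2.10). In Ft1sm22ko it was Cdkn2c (175), Cdkn2d (163), Cdkn1a (121), Cdkn1b (112.5), Cdkn2b (6.01) and Cdkn2a (3.30). Cdkn1a thus led in WT, and Cdkn2c led in both mutants. Without an error between hearts, no neighbours in these orders can be said to differ.

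**Figure D2:**
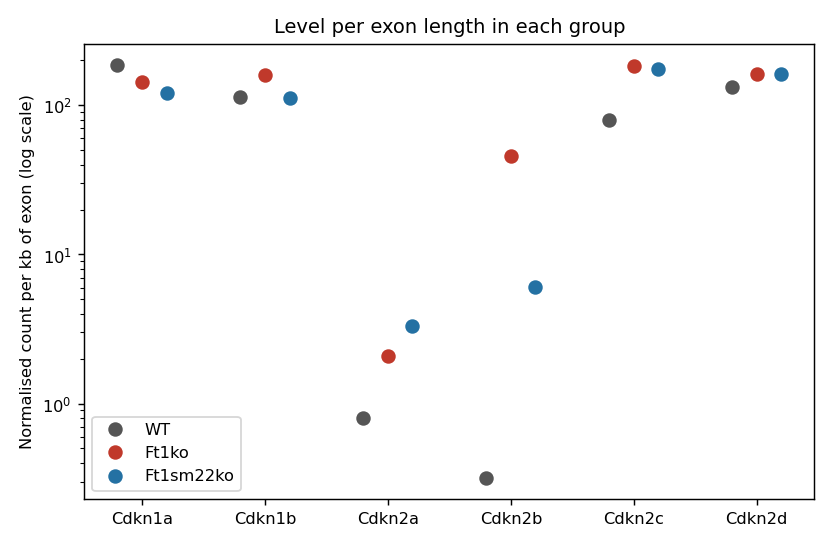
Level of the 6 CDK inhibitors in normalised counts per kb of exon (vertical axis, log scale) by gene, with 1 point for each group level. Cdkn1a at 188 is the highest point of WT and Cdkn2c, at 183 in Ft1ko and 175 in Ft1sm22ko, that of the mutants, while the WT points of Cdkn2a and Cdkn2b rest on levels near 0.

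The members were counted beside all genes. Of the 4 members with a pair mean of at least 10 in every table, 1 was at least 2-fold higher in Ft1ko than in WT, and so were 20.0% of the 13748 genes that passed the same minimum. The same 1 gene, Cdkn2c, was at least 2-fold higher in Ft1sm22ko, against 14.2% of all genes. Over the alignments its smallest ratio to WT was 2.0001 in Ft1ko and 1.87 in Ft1sm22ko, so that the count in Ft1sm22ko fell to 0 in part of the range, and aligned by the mode of the ratios it was 0 in both mutants. None of the 4 was at least 2-fold lower, against 16.7% of all genes in Ft1ko and 10.6% in Ft1sm22ko. Between the mutants none of the 4 reached 2-fold, against 6.34% of all genes higher and 8.80% lower in Ft1sm22ko. Cdkn2a and Cdkn2b did not pass the minimum and are not in these counts. The median log2 difference of all genes was 0.003 for Ft1ko over WT, with a range of -0.10 to 0.11 over the alignments, and 0.03 for Ft1sm22ko over WT (-0.14 to 0.07). Over the alignments the signs of Cdkn1a, Cdkn2c and Cdkn2d in each mutant and of Cdkn1b in Ft1ko held, whereas scaling to the total turned that of Cdkn1a, as given above.

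The mutant comparisons share the WT hearts, so the nearness of their values is no separate evidence. The genes nearest to each member in the pair of log2 differences to WT were taken from 9772 genes with a pair mean of at least 100. For Cdkn1a they were Dnajc17, Zranb2 and Btaf1, at distances of 0.0209 to 0.0358. For Cdkn1b they were Tmbim6, Mapk7 and Dek (0.0097 to 0.0255). For Cdkn2c they were Cenpf, C1ra and Kpna2 (0.0126 to 0.0316), and for Cdkn2d Cep120, Cd2ap and Tspan18 (0.0076 to 0.0132). Likeness here rests on 3 group levels per gene.

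**Figure D3:**
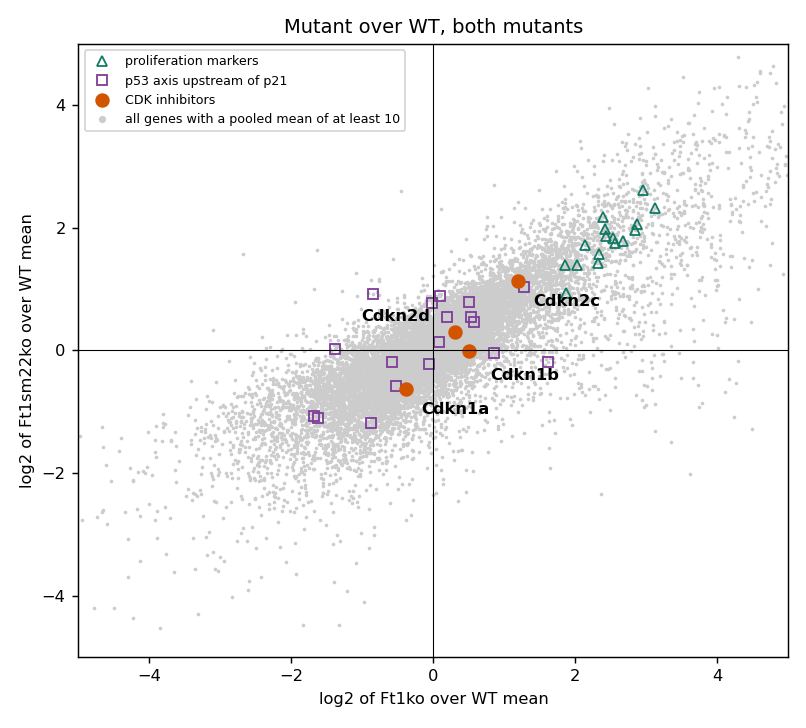
Log2 of Ft1ko over WT (horizontal axis) against log2 of Ft1sm22ko over WT (vertical axis), 1 point per gene with a pair mean of at least 10, with 204 genes outside the axes. Cdkn2c lies at 1.20 and 1.13, to the left of all 16 proliferation markers, and Cdkn1a at -0.38 and -0.63, among p53 axis genes that lie on both sides of 0.

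The kinases and cyclins that the inhibitors act on were mostly higher in the mutants. Of 12 cyclins and CDKs with sufficient level, 7 were at least 2-fold higher in Ft1ko and 6 in Ft1sm22ko. None was at least 2-fold lower, though 2 lay below WT in Ft1ko and 1 in Ft1sm22ko. The median log2 difference was 1.46 and 1.23. Ccnb1, a mitotic cyclin, was at 34.1 normalised counts in WT, 302 in Ft1ko and 279 in Ft1sm22ko. Ccne2, which activates CDK2 at the entry to S phase, was at 13.7, 107 and 94.1, and Ccna2, which acts in S phase and G2, at 153, 1139 and 875. Of the D cyclins, with which Ink4 proteins compete, none reached 2-fold. Ccnd1 was at 1272, 1339 and 1599, and Ccnd2 at 2111, 1818 and 2164, and Ccnd3 at 1275, 1800 and 1415. The kinases that Ink4 proteins bind went opposite ways. Cdk4 was at 654, 1428 and 1222.5 in WT, Ft1ko and Ft1sm22ko, and Cdk6 at 106, 82.0 and 72.4. These D cyclins and kinases were all named after their values were seen.

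Of 13 pocket proteins and E2F factors, which act below the CDKs, 6 were at least 2-fold higher in Ft1ko and 4 in Ft1sm22ko, with medians of 0.81 and 0.70. E2f2 was at 53.5 normalised counts in WT, 631 in Ft1ko and 193 in Ft1sm22ko. The repressive E2f7 and E2f8 were at 18.3, 137 and 115, and at 49.0, 309 and 146. All 16 proliferation markers were at least 2-fold higher in Ft1ko and 15 in Ft1sm22ko, with medians of 2.42 and 1.80. Mcm5, part of the replicative helicase, was at 89.6, 781 and 447 normalised counts, Rrm2, which makes deoxyribonucleotides, at 130, 1007 and 801, and the mitotic kinase Aurkb at 40.2, 292 and 169. Each of the 16 was lower in Ft1sm22ko than in Ft1ko, with a median of -0.73. The summed thymocyte, lung epithelium and fibroblast markers were higher, and the summed cardiomyocyte markers lower, in Ft1ko than in WT, at the levels above. Of the 5 fibroblast markers 2 were at least 2-fold higher in Ft1ko, and 1, Dcn, was lower by less than 2-fold (5674 in WT and 4624 in Ft1ko). The part of these markers in the levels of the cyclins, E2F factors and proliferation markers was not tested.

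The genes of the p53 axis lay on both sides of WT. Of 18, 2 were at least 2-fold higher and 3 at least 2-fold lower in Ft1ko. In Ft1sm22ko 1 was at least 2-fold higher and 3 at least 2-fold lower. The medians were 0.03 and 0.08. Gadd45a, a p53 target of growth arrest, was at 384 normalised counts in WT, 119 in Ft1ko and 183 in Ft1sm22ko. Sesn1, a stress response target, was at 1325, 431 and 615, and Trp53inp1 at 265, 814 and 233. Trp53 itself was at 306, 454 and 423, and Mdm2, its ligase and target, at 792, 762 and 680, both named after their values were seen.

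Of 7 genes listed for the degradation of Cip/Kip proteins, 4 were at least 2-fold higher and 1 at least 2-fold lower in each mutant. The medians were 1.26 and 1.11. By any fold, 3 of the 7 lay below WT in Ft1ko and 2 in Ft1sm22ko. The 1 gene lower by at least 2-fold was Fbxw7, which is known for targeting cyclin E rather than a Cip/Kip protein. It was at 3205 normalised counts in WT, 559 in Ft1ko and 844 in Ft1sm22ko. Cks2 was at 41.4, 224 and 214, and Cdc20, an activator of the anaphase promoting complex, at 108, 464 and 400. Of 12 polycomb genes, known to repress the Ink4 locus, 3 were at least 2-fold higher in Ft1ko and 1 in Ft1sm22ko, with medians of 0.22 and 0.06. Rnf2 was at 189, 506 and 414, and the methyltransferase Ezh2 at 220, 521 and 306 normalised counts. Of 13 transcription factors and ligands that act on p21, p27 or p15, 2 were at least 2-fold higher in each mutant, with medians of 0.69 and 0.28. They were Tgfb2, at 212, 969 and 507 normalised counts, and Tgfb3, at 284, 704 and 568, and the third by size, Smad2, was at 232, 459 and 416.

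Of 19 genes listed for senescence and its secretome, 12 had sufficient level, of which 6 were at least 2-fold higher in each mutant, with medians of 0.87 and 0.88. One of the 6 was Lmnb1, a nuclear lamin that is not secreted and is usually lost in senescent cells, at 182 normalised counts in WT, 1648 in Ft1ko and 838 in Ft1sm22ko. Mmp9 was at 10.4, 65.6 and 10.2, and Plaur, the urokinase receptor, at 43.8, 165 and 88.4. Cdkn1c, the imprinted Cip/Kip gene left out of the 6, was at 1019, 1084 and 699. The counts in these lists are descriptions beside the shares of all genes given above, and no list was tested.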

How the data were processed

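Heart RNA was taken up in TRIzol and sequenced from Universal Plus mRNA-Seq libraries, labelled as stranded. Whether counting used the strand is not given in the sources used here. The authors aligned reads with STAR and counted them per gene with HTSeq. The submitters' processing notes also name StringTie and the reference hg38, although the symbols are those of mouse. Versions are not given in the sources used here. The authors fitted DESeq2 to each pair of groups. The deposited signal of a gene is a mean of size-factor scaled counts, taken by the authors across all hearts of a pair. The 5 other columns of each of the 3 tables hold the authors' comparison (log2 fold change, its standard error, Wald statistic, p and adjusted p) and were not used.

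The 3 group levels of each gene were solved from its 3 pair means and the numbers of hearts (3 WT, 3 Ft1ko, 4 Ft1sm22ko), after the tables were put on the scale of WT with Ft1ko by the median log2 ratio over genes with a pair mean of at least 10. This takes 1 scale per table and the same WT hearts in both WT tables, which for the second rests on its name. Levels have no error and no p. Alignments without levels below 0 (grid of 0.005 on the log2 scale, refusing levels below 0 by over 1% of a gene's sum where every pair mean reached 100) were added after seeing the data. For ratios, levels under 1% of the sum were set to 1%. Differences count from 2-fold. The solution was tested on simulated data in which only a small part of the genes differed between groups, by 2-fold. Such data cannot test the alignment where many genes differ, as they do here. The members and lists were chosen with earlier results of these data known. Named are the 6 members, Aktip, from each list the 3 genes with the largest log2 ratio of Ft1ko to WT in size, and the 3 genes nearest to each member, of which 1 listed gene is not reported here. Xist, Ddx3y, Sftpc, Egfl7, Ckm, Dcn and AC167363.2 were named outside this rule, after their values or place were seen. Motifs were searched in RefSeq promoters of GRCm38.p6. Python 3.11.15, numpy 2.4.6, pandas 2.3.3 and matplotlib 3.10.9 were used. The depth of each library and the precision it gives are unknown.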

Additional observations from a re-analysis of the deposited data

How the results depend on the processing

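No paired analysis was possible because no values per heart were used, and for the same reason no heart could be left out. A level or log2 difference was taken as moved where it left its range over the alignments that keep levels from falling below 0. A count or share was taken as moved where it differed from the main setting by a ratio over 1.5, or went to or from 0. These rules were made for this purpose, since no spread between hearts is known. Values that did not move are left out. Aligned by the median over genes with a mean of at least 100, the log2 differences to WT in Ft1ko and Ft1sm22ko were 0.61 and 0.052 for Cdkn1b, 1.37 and 1.26 for Cdkn2c and 0.43 and 0.37 for Cdkn2d, Cdkn2a was at 0.81 in WT and 2.58 in Ft1ko, and Cdkn2b at -0.29 and 64.1. By the median over all genes, the log2 differences between the mutants were -0.19 for Cdkn1a, -0.024 for Cdkn2c and 0.046 for Cdkn2d. By the mode of the ratios, Cdkn1a in Ft1sm22ko was at -0.82, Cdkn1b at 0.37 and -0.24, Cdkn2c at 0.98 and 0.86 and Cdkn2d at 0.17 and 0.10, so that 0 members were 2-fold higher than WT in either mutant, with 9.27% of all genes higher in Ft1sm22ko. Under it Cdkn2a was at 1.08 in WT and 2.31 in Ft1ko, and Cdkn2b at 2.74 in WT, 61.0 in Ft1ko and 6.32 in Ft1sm22ko. Aligned by the total of the pair means, which put 18.2% of genes below 0 in a group, Cdkn1a was at 0.84 and 0.50, Cdkn1b at 2.36 and 1.85 and Cdkn2d at 2.39 and 2.23, Cdkn2a at -0.76, 4.15 and 5.05 and Cdkn2b at -15.7, 79.5 and 20.3 in WT, Ft1ko and Ft1sm22ko, and Cdkn2c had no ratio to WT, since its WT level was under 1% of its sum. Under it 3 members (Cdkn1b, Cdkn2d and Cdkn2c, the last over a WT level set to 1%) were higher in each mutant, and of all genes 66.8% were higher and 3.4% lower in Ft1ko, 64.5% and 2.69% in Ft1sm22ko, and 0.64% higher in Ft1sm22ko than in Ft1ko.

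With a fold of 1.5, 1 member (Cdkn1a in Ft1sm22ko) was lower than WT, 3814 of all genes were lower in Ft1ko, 3474 higher and 3009 lower in Ft1sm22ko, and 2192 higher and 2277 lower between the mutants. With a mean of at least 100, 11.9% of all genes were higher in Ft1ko and 8.65% in Ft1sm22ko, and 2.92% were lower in Ft1sm22ko than in Ft1ko, against 14.1% with no minimum.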
